A study of Rattus norvegicus with 4 samples.

Results

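The smooth muscle contractile genes are a set of 10 genes for the contractile machinery of the visceral muscle cell: Myh11, Actg2, Acta2, Tpm1, Tpm2, Cald1, Cnn1, Mylk, Tagln and Des. Their probes were found by the gene name on the array after a trailing "predicted" or "mapped" was removed. Older names were resolved through the accessions and descriptions, which added all 3 Tpm2 probes, 2 Tpm1 probes and 1 Cald1 probe described as h-caldesmon. In all, 21 of 41012 probes matched, covering 9 of the 10 genes. Acta2, the actin of vascular smooth muscle, was matched by no probe and is not analysed here. Of the 21 probes, 17 entered the test, with at least 1 for each of the 9 genes, out of 18896 probes tested on the array.

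The rats were of the inbred strain F344. For 20 days, 8 treated rats received a daily dose of 1 mg resveratrol (a polyphenol of grapes) per kg in their feed, and 8 control rats ate standard chow. Both groups then drank water with 5% dextran sodium sulphate (DSS), which injures the colon lining, over 5 days. No rats without DSS were among the samples, and the labels used here give no age or sex. RNA of the colon mucosa from 2 treated rats, labelled with Cy5, was set on each of 4 arrays against control RNA labelled as a pool, in Cy3, with a new pair of rats on every array. The labels do not say how many rats the pool held or whether all arrays carried the same one. The dyes were not exchanged, so a dye effect of a probe cannot be told apart from the treatment. Arrays 1 and 2 lay on slide 1, and arrays 3 and 4 on slide 2.

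A smooth muscle cell shortens when filaments of smooth muscle myosin pull on filaments of actin. Calcium entering the cell binds calmodulin, which turns on myosin light chain kinase; the phosphorylated myosin then cycles along the actin. Tropomyosins, caldesmon and calponin lie along the actin filament and restrain or steady it, and desmin filaments tie the contractile units together. In the colon these proteins are abundant in the muscle layer beneath the mucosa, the thin muscularis mucosae at its base, and the walls of vessels, and some of them are also made by myofibroblasts near the crypts.

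All values are log2 ratios of the resveratrol sample over the control pool, so that negative values mean less signal with resveratrol, and ± marks the moderated standard error (SE) of limma's fit over all probes. A probe was called when its mean over the arrays differed from 0 at a Benjamini-Hochberg adjusted p under 0.05 in limma. Of the 17 tested member probes, 2 were called lower, 1 of Des and 1 of Cald1, where 22.7% of all tested probes were called lower. None of the 17 was called higher by limma (1 at an unadjusted p under 0.05), where 24.3% of all tested probes were. Of the 14 probes with values on 4 arrays, 4 were below 0 on every array (all such probes, 26.1%). The share of members called over all 4 arrays was therefore near or below that of the whole array. The larger falls lay on slide 2. On slide 1 none of the 17 probes had a mean at or below -1 (all tested probes, 0.823%). On slide 2, 6 of the 14 probes measured on both of its arrays did (all tested probes, 4.06%). These 6 probes belong to Tagln, Myh11, Des, Tpm1 and Tpm2, and probes of the same gene are not separate members. With each gene read by its brightest tested probe, 2 of 6 genes were at or below -1 on slide 2 (all named genes, 3.44%). The median of the member probes was 0.029 on slide 1 against 0.051 for all tested probes, and -0.57 on slide 2 against 0.019. By gene, each through its brightest tested probe, the members' medians were -0.335 on slide 1 (9 genes) and -0.566 on slide 2 (6 genes). These medians are not over the same genes, so they are not a like comparison between slides. All named genes had medians of 0.092 and 0.060, so the member genes stood below them on slide 1 too.

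**Figure D1:**
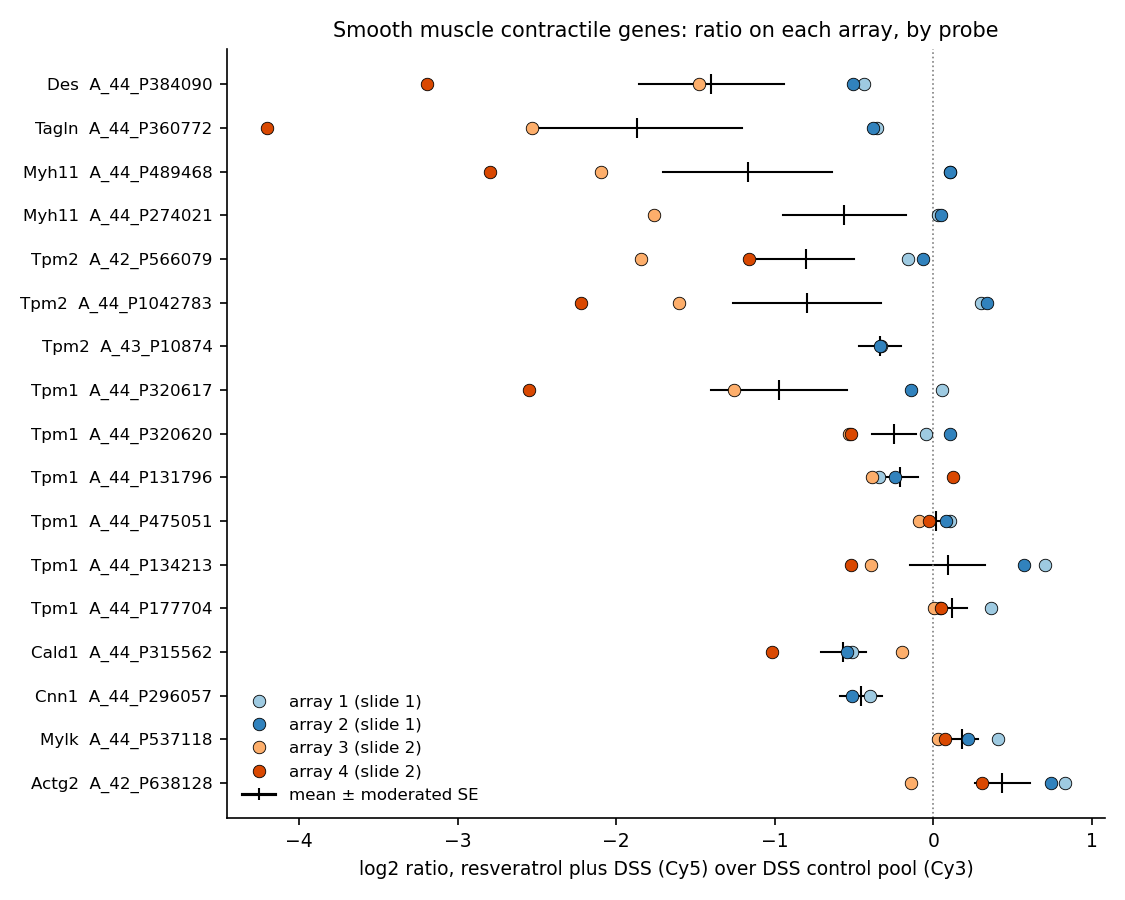
Log2 ratio of each tested member probe (rows) on each of the 4 arrays (points), with the mean and its moderated SE in black. Blue points (slide 1) lie between -0.55 and 0.83 for all 17 probes, while orange points (slide 2) reach -3.19 for Des and -4.20 for Tagln.

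Myh11 is the heavy chain of smooth muscle myosin, the motor of contraction and the most specific protein of this cell type. It has 2 probes, on the + strand of the rn3 build, shown here because both read lower on array 3 than on either array of slide 1.
Myh11 probe A_44_P274021, chr10:719479-719538: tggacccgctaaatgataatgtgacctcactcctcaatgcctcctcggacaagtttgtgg
Myh11 probe A_44_P489468, chr10:769508-769567: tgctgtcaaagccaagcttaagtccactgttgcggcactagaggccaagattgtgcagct
The ratios of A_44_P489468 were 0.10 and 0.10 on arrays 1 and 2, and -2.10 and -2.80 on arrays 3 and 4. The groups of arrays did not overlap: on slide 1 the resveratrol samples were level with the control pool, and on slide 2 they were 5.45-fold lower on average. On array 4 the Cy5 signal was not well above background, so that its value and the averages that include it are limits rather than levels. The mean was -1.17 ± 0.53 (n = 4 arrays, adjusted p = 0.108 in limma), and the slide difference was -2.55 ± 0.25 (unadjusted p = 5.45e-05, adjusted p = 0.248). A_44_P274021 read 0.03, 0.05 and -1.76 on arrays 1 to 3. Its spot on array 4 was marked as an outlier by the scanner software and left out, and when such spots were kept it read -0.44 there, against -2.62 for A_44_P489468. On array 4 the probes of this gene thus differed widely from each other.

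Actg2 is the actin of enteric smooth muscle, the main thin filament protein of the gut wall. Its probe is shown because actin genes share much of their coding sequence, and whether other actin transcripts bound to it was not tested.
Actg2 probe A_42_P638128, chr4:117980042-117980101, - strand: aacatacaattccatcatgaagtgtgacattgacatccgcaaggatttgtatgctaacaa
Its ratios were 0.83 and 0.74 on slide 1 and -0.14 and 0.31 on slide 2, all arrays of slide 1 above those of slide 2. The mean was 0.43 ± 0.17 (n = 4, adjusted p = 0.0795). It is a bright probe, with log2 intensities from 12.27 to 13.41 as slide means, and its values on slide 2 depended on the treatment of outlier-marked spots. With those spots kept in the normalization it read 1.08, 0.88, 1.62 and 1.09, a mean of 1.17 ± 0.14 (adjusted p = 0.00105). Actb, the nonmuscle actin of every cell, was at 1.70, 1.47, 0.16 and 1.45 on the same arrays (mean 1.20 ± 0.26, adjusted p = 0.0161). A probe for a predicted gene similar to Actg2, LOC360902, which lies on an unplaced piece of chromosome 13, read 1.15 and 0.71 on arrays 2 and 4, its other spots being marked as outliers.

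Tropomyosins are coiled rods that lie along the actin filament, and Tpm1 and Tpm2 make alpha and beta chains in smooth muscle and, by alternative splicing, in other cells. In Tpm1, 2 coding probes that lie close together in the genome gave different ratios. They are shown with a probe of Tpm2, and capitals mark the 27 of 35 overlapping bases (77.1%) at which A_44_P320620 and the Tpm2 probe are identical. All are on the - strand of rn3.
Tpm1 probe A_44_P320617, chr8:71359894-71360704, crossing an intron: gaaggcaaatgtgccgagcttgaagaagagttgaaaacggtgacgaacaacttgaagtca
Tpm1 probe A_44_P320620, chr8:71359376-71359435: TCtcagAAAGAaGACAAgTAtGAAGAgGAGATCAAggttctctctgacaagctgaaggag
Tpm2 probe A_44_P1042783, chr5:59998142-59998742, crossing an intron: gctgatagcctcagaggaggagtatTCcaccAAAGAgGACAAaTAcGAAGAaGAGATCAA
Tpm1 probe A_44_P320617 read 0.05 and -0.14 on slide 1 and -1.26 and -2.55 on slide 2. The slides did not overlap, with slide 2 3.74-fold lower than the pool (mean of 4 arrays -0.97 ± 0.43, adjusted p = 0.100). Tpm1 probe A_44_P320620 read -0.05, 0.10, -0.53 and -0.52, again lower on slide 2 but by far less (mean -0.25 ± 0.14, adjusted p = 0.169). The gap between these probes of the same gene, A_44_P320617 minus A_44_P320620, was 0.10 and -0.24 on arrays 1 and 2 and -0.73 and -2.03 on arrays 3 and 4.

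Of the other 4 Tpm1 probes 1 differed between slides and 3 stayed near 0. A_44_P134213 read 0.71 and 0.57 on slide 1 and -0.40 and -0.52 on slide 2 (mean 0.09 ± 0.24, adjusted p = 0.761), so its mean near 0 joined opposite slides (slide difference -1.10 ± 0.16, adjusted p = 0.248). A_44_P177704 (0.37, 0.04, 0.00 and 0.05), A_44_P475051 (0.11, 0.08, -0.09 and -0.03) and A_44_P131796 (-0.34, -0.24, -0.38 and 0.13) stayed within 0.4 of 0 on every array. The last 2 are dim. Each channel was well above background on 2 arrays for A_44_P475051 and on 3 for A_44_P131796. Their ratios near 0 therefore do not show an unchanged transcript. Which spliced forms of tropomyosin each probe detects was not determined.

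Tpm2 probe A_44_P1042783 read 0.30 and 0.34 on slide 1 and -1.61 and -2.22 on slide 2 (mean -0.80 ± 0.47, adjusted p = 0.191; slide difference -2.23 ± 0.23, unadjusted p = 7.36e-05, adjusted p = 0.248). The slides lay on opposite sides of 0. A_42_P566079, at the 3′-most position of the Tpm2 probes, read -0.16, -0.07, -1.84 and -1.16 (mean -0.81 ± 0.31, adjusted p = 0.0705). A_43_P10874 was measured on slide 1 alone, at -0.33 and -0.34. When outlier-marked spots were kept, A_42_P566079 read -0.75 and -0.39 on slide 2 and A_43_P10874 read -0.68 and -0.37, so only A_44_P1042783 (-1.13 and -1.98) stayed beyond -1 there.

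Cald1 encodes caldesmon, which binds actin and blocks its contact with myosin; h-caldesmon is the long form of smooth muscle. It was called lower through a dim probe, A_44_P315562, at -0.51, -0.55, -0.19 and -1.02 (mean -0.57 ± 0.14, n = 4, adjusted p = 0.0234). All 4 arrays were below 0, with array 3 nearest to it. Its Cy5 signal did not clear the background on any of the arrays, and its Cy3 signal did on 3 of them, all but array 2. With Cy5 raised, where lower, to the lowest level called well above background on each array, the resveratrol samples averaged 1.39-fold lower. On array 4 a Tpm1 probe (A_44_P131796) had Cy5 at 8.02 without clearing background, while Des cleared it at 7.97. The value of 1.39 is therefore not a firm limit. The mean of A_44_P315562 was -1.11 with the scanner's processed signals as given and -1.03 with loess on them, beyond the value from normexp by over 1.5 times. The remaining 3 Cald1 probes were not tested. The h-caldesmon probe A_44_P276276 kept a value on array 1 alone, -0.95, and with outlier-marked spots kept read -0.85, -0.85, -1.54 and -0.79 (mean -1.01 ± 0.15, adjusted p = 0.0020). A_44_P660244, marked on all 4 arrays, then read -0.54, -0.55, -1.36 and -0.36. A_44_P660246 was not well above background. The transcript tag CF110190, which lies just downstream of the Cald1 probes on the same strand and is not a member, was called lower at -1.10, -0.64, -1.48 and -2.99 (adjusted p = 0.020).

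Cnn1 encodes calponin, an actin-binding brake on myosin. Its probe read -0.40 and -0.51 on slide 1 and had outlier-marked spots on both arrays of slide 2 (mean -0.46 ± 0.13, n = 2, adjusted p = 0.0530). With these spots kept it read -0.21, -0.38, -0.47 and -0.45, a mean of -0.38 (adjusted p = 0.0141 in limma against 0). All arrays were below 0, and both arrays of slide 2 were lower by little, a difference to which this p does not refer. Mylk encodes myosin light chain kinase, the switch of contraction, and gives rise to a long form in nonmuscle cells too. Its coding probe A_44_P537118 read 0.41 and 0.22 on slide 1 and 0.03 and 0.07 on slide 2 (mean 0.18 ± 0.10, adjusted p = 0.156), which puts no array below 0. Its other probe, A_44_P1011305, was marked on all 4 arrays and read -0.22, -0.33, -1.16 and -0.45 with such spots kept (adjusted p = 0.0229), the opposite sign. The Mylk probes thus gave no single direction for the gene.

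Tagln encodes transgelin (SM22 alpha), an actin-bundling protein of smooth muscle and myofibroblasts, and showed the widest range of all members. Its probe is shown because it gave the lowest value of the set.
Tagln probe A_44_P360772, chr8:48911502-48911882, - strand, crossing an intron: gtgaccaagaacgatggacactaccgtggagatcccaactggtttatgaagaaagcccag
It read -0.36 and -0.38 on slide 1 and -2.53 and -4.20 on slide 2. All 4 arrays were below 0. The slide means were 1.29-fold and 10.3-fold below the pool, but on array 4 the Cy5 signal was not well above background, so that the values that include this array are limits, and on slide 2 a measured level comes from array 3 alone. The value on array 4, a limit, was at rank 2 from the lowest of 14991, and the value on array 3 at rank 241 of 16004. The mean was -1.87 ± 0.66 (n = 4, adjusted p = 0.0577), just short of the threshold, which it passed with marked spots kept (0.0483) and in the authors' deposited table (0.0459) among other settings. Without array 4 the mean was -1.09 (adjusted p = 0.118), and the slide difference was -3.0 ± 0.51 (unadjusted p = 0.000998, adjusted p = 0.248).

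Des encodes desmin, the intermediate filament of muscle cells. It read -0.44 and -0.50 on slide 1 and -1.48 and -3.19 on slide 2, with both channels well above background on every array. The fall was in the same direction on all 4 arrays and 5.05-fold on slide 2 against 1.39-fold on slide 1. The mean was -1.40 ± 0.46 (n = 4, adjusted p = 0.0471), so Des passed narrowly. It missed the threshold when any 1 array was left out (adjusted p from 0.0516 to 0.0700), and with slide as a random block (0.0595). Without array 4 the mean was -0.81.

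**Figure D2:**
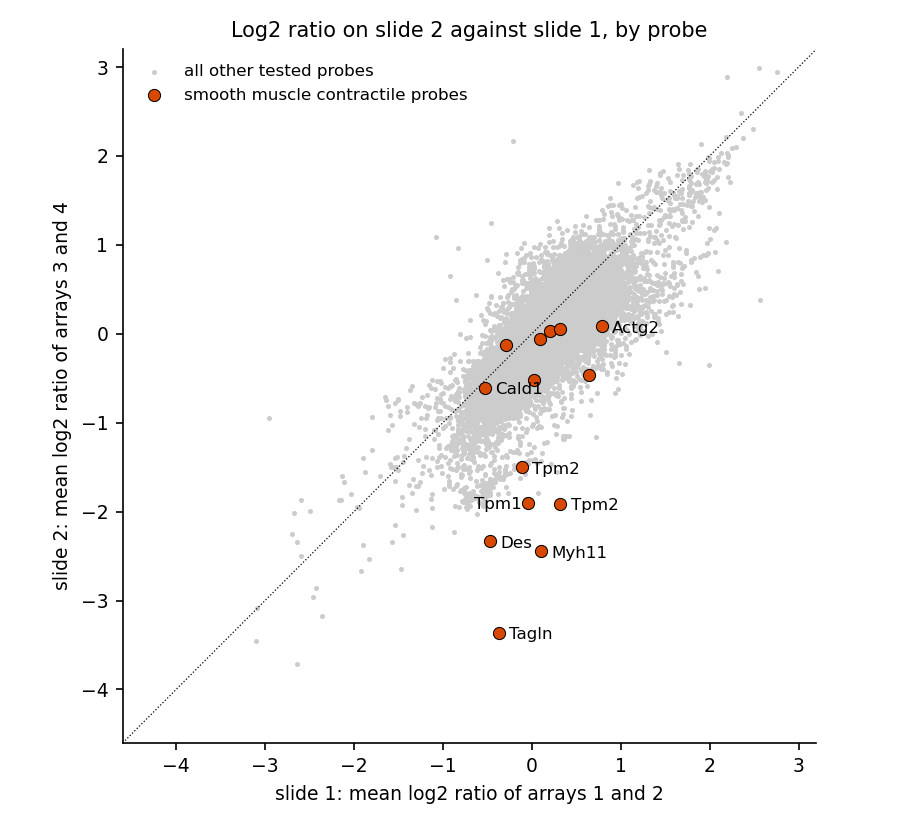
Mean log2 ratio on slide 2 (vertical axis) against slide 1 (horizontal axis) for every tested probe with values on 4 arrays; grey points are all other probes, orange points the 14 member probes, and the dotted line marks equal ratios. The probes of Tagln, Myh11, Des, Tpm1 and Tpm2 at or below -1 on slide 2 have slide 1 means between -0.47 and 0.32. Of all tested probes with both slide 2 values, 4.06% are at or below -1 there.

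Taking the slides one by one, both slide 2 ratios lay below both slide 1 ratios in 11 of the 14 probes with 4 values, where 41.9% of all such probes did. An unadjusted p under 0.05 for a lower value on slide 2 was reached by 9 of the 14, and by 14.3% of all probes with 4 values. After Benjamini-Hochberg adjustment limma called no slide difference, for members or for any of the 14227 probes (smallest adjusted p = 0.248; 16.0% of the probes had an unadjusted p under 0.05). Fitted on slide 2 alone, 6 of the 14 member probes were called lower by limma, each at an adjusted p of 0.0461 (all probes, 6.93%). They are the 6 probes at or below -1, a cut made on the same arrays, so these calls add no separate support. On slide 1 alone 6 member probes were called lower, among them Tagln and Des, against 25.5% of all probes, and 4 were called higher against 33.2%. The slide and the 4 rats on it cannot be told apart.

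The channels were also set apart, each on the log2 intensity scale after normalization between arrays. For Tagln the Cy5 level was 11.68 on slide 1 and 8.54 on slide 2, while the Cy3 level of the control pool was 12.05 and 11.91. For Des the Cy5 level went from 10.96 to 8.92 and Cy3 from 11.43 to 11.25. Myh11 probe A_44_P489468 went from 11.06 to 8.20 in Cy5 and from 10.95 to 10.64 in Cy3. On this normalized scale the difference between slides in these genes was carried mainly by the resveratrol channel. The Cy3 channel read nearly alike on both slides, whether or not it held the same pool. The same held for Tpm1 A_44_P320617 (Cy5 difference -1.93, Cy3 -0.07) and Tpm2 A_44_P1042783 (-2.18 and 0.05). In Tpm2 A_42_P566079 both channels moved, with Cy5 at -0.88 and Cy3 at 0.51. Cy5 also fell for Actg2 (Cy5 -1.06, Cy3 -0.355) and Tpm1 A_44_P134213 (-1.42 and -0.32), which were not at or below -1 on slide 2. The shift of all probes in each channel is not given here.

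**Figure D3:**
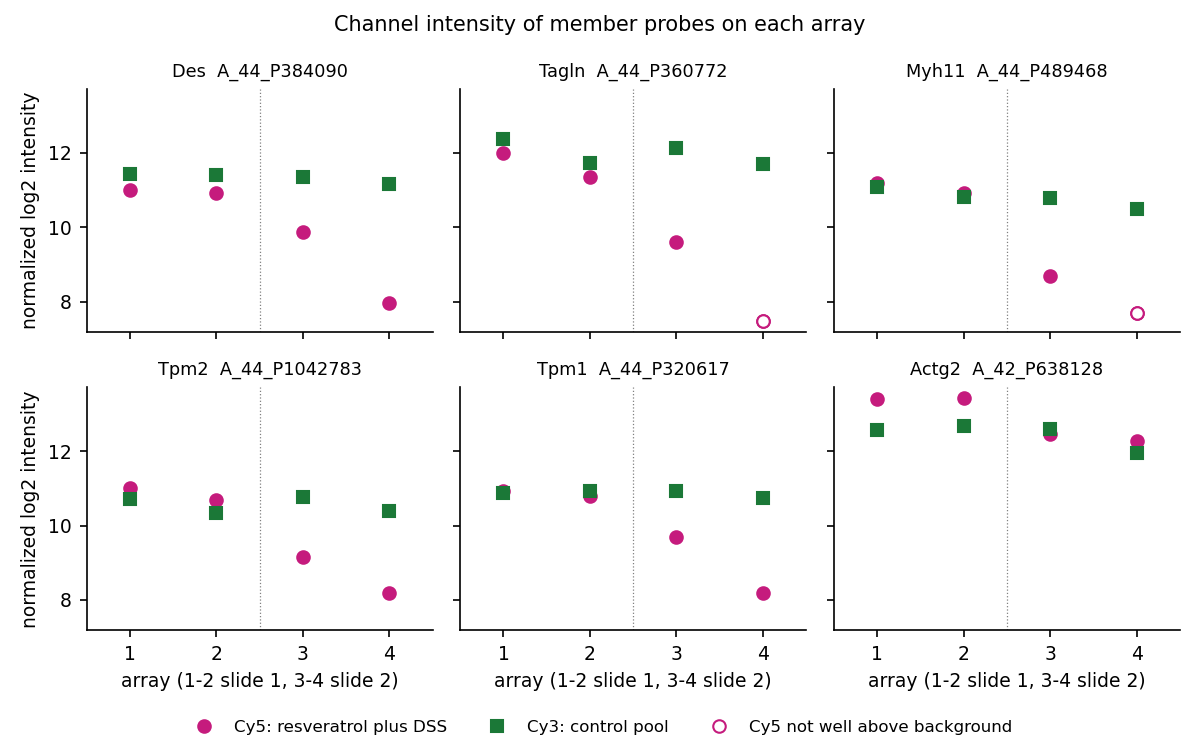
Normalized log2 intensity (vertical axis) of 6 member probes in Cy5 (resveratrol plus DSS, circles) and Cy3 (control pool, squares) on arrays 1 to 4; open circles were not well above background. Cy5 drops on slide 2 for Des, Tagln, Myh11, Tpm2 and Tpm1 while Cy3 holds its level, and for Actg2 both channels stay above 11.9.

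Slide 2 differed from slide 1 in technical measures too, and their part in the result was not tested. Outlier marks fell on 3.45% and 4.68% of spots on arrays 1 and 2 and on 11.03% and 13.7% on arrays 3 and 4. The Cy3 signal was well above background for 43.97% and 42.77% of spots on arrays 1 and 2, and for 57.1% and 56.38% on arrays 3 and 4. For Cy5 the shares on arrays 1 to 4 were 49.2%, 48.95%, 48.74% and 44.08%. Of tested probes with a mean log2 intensity of 11 or above, 43.6% had no value on array 3 and 46.8% none on array 4. Keeping the marked spots moved the ratios of the rest of these bright probes upward, by a median of 1.78 and 0.715. For probes of intensity 9 to 11 the upward shift was 0.39 and 0.32, and for dimmer probes 0.04 and 0.02. Tagln and Tpm2 A_42_P566079 fall in the brightest class, and Des, Myh11 A_44_P489468, Tpm1 A_44_P320617 and Tpm2 A_44_P1042783 in the middle one. The count of member probes at or below -1 on slide 2 was 6 of 20 with outlier-marked spots kept (all probes, 2.87%), 5 of 14 under median centring (2.08%), 7 of 14 with the scanner's processed signals as given (12.0%), and 6 of 13 in the authors' deposited table (10.5%). On slide 1 it was 0 under each of these. Over all 4 arrays, 8 of 20 member probes were called lower and 3 higher with marked spots kept (all probes, 30.6% and 33.7%), and 6 and 3 of 17 under median centring (9.75% and 36.3%). For Tagln the slide 2 mean ranged from -2.77 with marked spots kept to -4.17 with processed signals and loess, and for Des from -1.81 to -2.77. On array 3, keeping the marked spots raised Tagln from -2.53 to -1.68, Des from -1.48 to -0.75 and Tpm1 A_44_P320617 from -1.26 to -0.65.

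Other parts of the contractile cell were read through lists of genes, each gene by its brightest tested probe; over all named genes tested, 19.6% were called lower and 25.6% higher, with a median of 0.015. Among partners of the contractile cytoskeleton 22 of 33 genes were tested, 4 were lower and 3 higher, and the median was -0.18. Itga8, an integrin subunit of smooth muscle, fell to -0.89 ± 0.22 (adjusted p = 0.0217), and Hspb1, a small heat shock protein that binds actin, to -0.88 ± 0.14 (adjusted p = 0.0080). Actn1, an actin crosslinker, fell to -0.66 on the arrays of slide 1. Dmd and Zyx rose, with means of 0.45 and 0.41, and Tpm3, measured on slide 1 alone, to 0.89. On slide 2, 5 of 16 partner genes stood at or below -1 (all named genes, 3.44%): Itga8, Hspb1, Synm, Flna and Myl9, named after their values were seen. Myl9, the regulatory light chain of smooth muscle myosin, read 0.07 and 0.07 on slide 1 and -1.94 and -1.65 on slide 2 (adjusted p = 0.106). Its other probe, A_44_P365436, read 0.44 and 0.27 and then -0.81 and -0.87, a smaller drop. Flna, which crosslinks actin, had slide means of 0.05 and -1.06. Synm, an intermediate filament protein that joins desmin, read -0.28, -0.07, -0.89 and -1.77 (adjusted p = 0.0647).

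In contraction and relaxation signalling, 21 of 30 genes were tested, 5 lower and 3 higher, with a median of -0.04 and none at or below -1 on slide 2. The receptors for angiotensin II and endothelin fell, Agtr1a to -0.72 ± 0.14 (adjusted p = 0.0170) and Ednra to -0.72 ± 0.18 (adjusted p = 0.0307), as did the calcium channel subunit Cacna1c, to -0.53 ± 0.11 (adjusted p = 0.0178). Each of these was measured on 3 arrays. Calm2, which encodes calmodulin, and Prkg1, the kinase of nitric oxide relaxation, rose to 0.37 and 0.42. Of transcription factors of smooth muscle 9 of 17 were tested, none lower and 2 higher (Gata6 0.64, on slide 1 alone, and Mef2d 0.36), with a median of 0.00 (3 lower at an unadjusted p under 0.05). Srf, the factor that binds CArG boxes of contractile genes, was at 0.14 ± 0.14 (adjusted p = 0.398).

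In the nonmuscle actin and myosin list, of 16 tested genes 5 were higher and none lower by limma (none lower at an unadjusted p under 0.05 either), and the median was 0.47, from 0.39 to 1.09 under the other normalizations and in the authors' deposited table. Its median was 0.80 on slide 1 (all named genes, 0.092) and 0.049 on slide 2 (0.060). Myh14, a nonmuscle myosin of epithelium, rose to 1.58 ± 0.17 (adjusted p = 0.00422), and Capzb, which caps actin filaments, to 1.00 ± 0.15 (adjusted p = 0.0070). Myh14 read 1.82, 1.29, 1.16 and 2.06, high on both slides, unlike Myh11. In the list of striated muscle 11 of 24 genes were tested, with 4 lower (among them Mb, Tnnc2 and, on slide 1 alone, Tnni2 at -0.93, -0.65 and -0.53) and 4 higher (among them Actn3, Ttn and Myh6 at 1.34, 0.86 and 0.67).

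Markers of the other cells of the colon wall are given beside these values, and their part in the result was not tested. Of fibroblast markers 10 of 11 tested were lower and none higher by limma (none higher at an unadjusted p under 0.05 in this list, the endothelial or the neural list, and none lower in the epithelial list), with a median of -0.77, and they were low on both slides (slide medians -0.76 and -0.78). Col1a2, a chain of type I collagen, read -2.0, -1.88, -2.04 and -1.89, Col3a1 -1.98, -1.87, -2.02 and -3.33, and the filament gene Vim -1.07, -1.18, -1.44 and -2.27. The slide medians of the fibroblast list were thus alike (11 and 10 genes). Those of the contractile genes, each by its brightest tested probe, were -0.335 (9 genes) and -0.566 (6 genes), and so not over the same genes. Single fibroblast genes moved both ways. Vim (slide means -1.13 and -1.85) and Col3a1 (-1.92 and -2.67) stood lower on slide 2, and Dcn (-1.13 and -0.61) and Pdgfra (-1.0 and -0.67) stood higher. The difference between these lists was not tested. Endothelial markers had 4 of 7 lower and none higher (median -0.40; Tek, Eng and Vwf at -0.59, -0.56 and -0.49), and markers of enteric neurons and glia 4 of 8 lower and none higher (median -0.47; Gfap at -0.74 and, on slide 1 alone, Vip and Prph at -0.60 and -0.48). Pericyte markers had 2 of 3 lower (Mcam -0.58 and Cspg4 -0.38) and Rgs5 higher at 0.54. Markers of interstitial cells of Cajal, the pacemakers of the gut, had Hand2 and Kit lower at -0.52 and -0.45 and Ano1 higher at 0.44, of 5 tested. Epithelial markers had 8 of 13 higher and none lower (median 0.80), with Muc2, Krt18 and Cdx1 at 1.63, 1.38 and 1.12. In RNA of whole mucosa, fewer smooth muscle cells and less of each RNA per cell cannot be told apart.

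**Figure D4:**
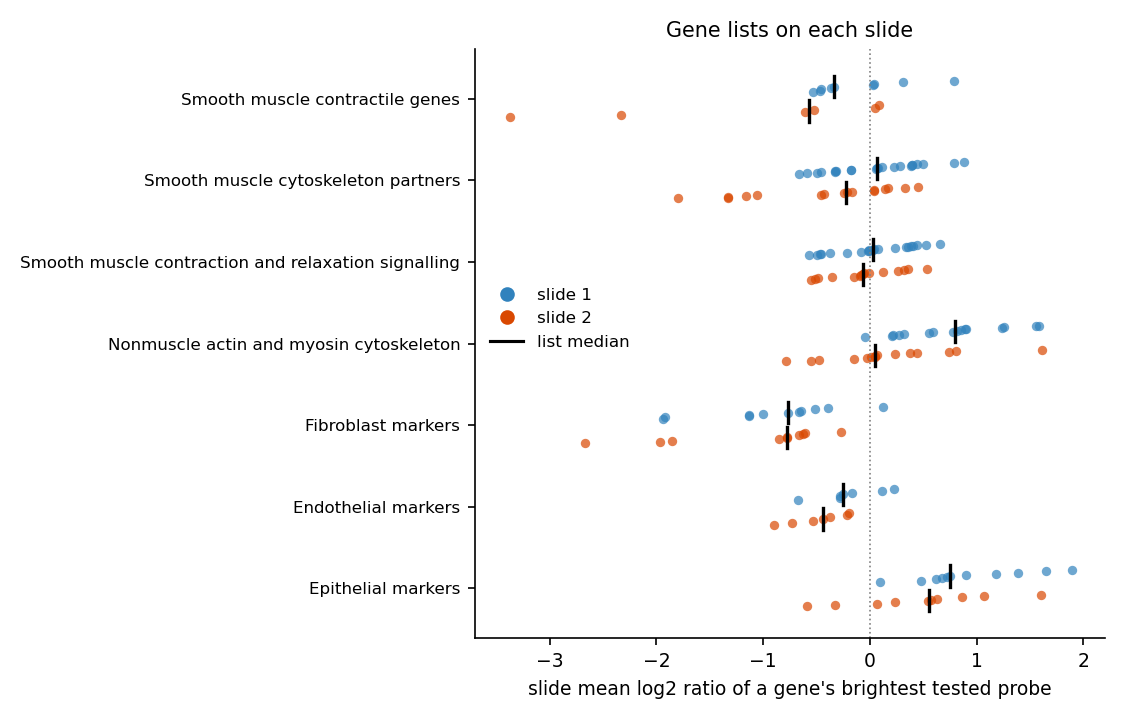
Slide mean log2 ratio (horizontal axis) of each gene's brightest tested probe, by gene list (rows), on slide 1 (blue) and slide 2 (orange), with list medians as black bars. On slide 2, 2 of 6 contractile genes and 5 of 16 cytoskeleton partners are at or below -1 (all named genes, 3.44%), as no gene of either list is on slide 1. Over all tested probes the share at or below -1 was 0.823% on slide 1 and 4.06% on slide 2. The medians on slides 1 and 2 are -0.335 and -0.566 for the contractile genes (9 and 6 genes) and -0.76 and -0.78 for fibroblast markers (11 and 10 genes).

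The genes whose ratios on the 4 arrays lay nearest to the members' median on each array (-0.33, -0.34, -0.53 and -0.77) were Myadml2, Or2r11, Or13c7e, Pakap and Slf1, with mean absolute differences from 0.025 to 0.046 over the 4 arrays. The medians do not show the spread of the members described above. Promoter sequence was available from RefSeq (assembly GRCr8) for 8 of the 10 members in 9 windows, from 250 bases before to 50 after the start. None of the 9 held a CArG box (a CC and a GG around a run of A or T, on either strand), where 1.64% of 33469 windows did. At so low a share, finding none in 9 windows does not set the members apart. Sites outside the windows were not searched. The windows of Tagln and Myh11 were not used here. The median GC content of the tested member probes was 45%, as for all tested probes. The short sequences CACCTC or ACCTCA, counted on the printed strand, were in 1 of 17 member probes (Myh11 A_44_P274021) and in 3.80% of all tested probes, whose median ratio was 0.20.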

How the data were processed

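RNA of colon mucosa from 8 resveratrol rats was measured on 4 arrays, each holding 2 rats in Cy5 against a control pool in Cy3. The replicates are separate rats, numbered in accession order. The p-values measure the spread between these 4 arrays, and the pool's own spread is left out because it entered as 1 control sample, although the labels do not say that it was the same on every array. Per the file headers, the intensity of each spot in the deposited files was written by Agilent Feature Extraction 9.5.3.1, and probe positions are on rn3. The deposited value table of the authors holds log2 ratios (24197 probes matched, r of 0.981 to 0.992 with the scanner's ratios), which gave scale and direction; its centring is unknown. Limma is named in the submitters' processing notes.

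Mean signals were corrected with normexp (offset 50) and normalized by loess within arrays (limma 3.58.1, R 4.3.3). Control spots and spots marked as outliers had weight 0 and marked spots were left out; spots of a probe were averaged. A probe entered if either channel was well above background on 3 or more arrays (20436), and 1540 of these had under 2 values. Ratios were tested against 0 with lmFit and eBayes (two-sided) and adjusted by Benjamini-Hochberg at 0.05 over all 18896 probes. A slide term was fitted on probes with 4 values. The fit was tested on simulated data. Genes were named through the RefSeq table of assembly GRCr8, by accession for 10726 probes, another accession for 126, symbol for 5551 and synonym for 3704. All members were named; of each other list, up to 3 genes called lower and 3 called higher with the largest ratios, and 5 genes nearest to the members' median. A gene taken by this rule is not reported here. Srf and the members of short counts were named beyond that rule. The members and lists were chosen with earlier results of these data known. Single settings were changed one at a time, among them the background, normalization, filter, marked spots, slide and each array.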

Additional observations from a re-analysis of the deposited data

Results flagged for a closer look

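Tpm1 probe A_44_P177704 stood out because array 1, at 0.37, was far above arrays 2 to 4 (0.04, 0.00 and 0.05) relative to the range of all 4. The gap passed the critical value of Dixon's test for 4 samples. Chance alone passes it now and then, and 14 member probes were examined in this way. The cause was not tested.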

How the results depend on the processing

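No paired analysis was possible because the 4 arrays form a single group whose numbers follow accession order. The count of member probes called lower, 2, was 4 with processed signals and loess, 5 with processed signals as given, 6 under median centring, 8 with outlier-marked spots kept, 0 with both channels above background on all arrays, 1 with saturated spots left out, 1 with slide as a random block, 6 on slide 1 alone, 6 on slide 2 alone, 0 with the standard error widened by the square root of 2 and 4 in the authors' table; leaving out an array gave 0 to 2. The count called higher, 0, was 3 under median centring, 3 with marked spots kept, 4 on slide 1 alone and 0 to 1 without an array. Over all probes, 4295 were lower and 4601 higher. The lower count was 1842 under median centring, 1975 with both channels above background, 1006 on slide 2 alone and 730 with the wider error, and 1421 to 4221 without an array. The higher count was 2587, 749 and 1460 under the last 3 of these settings, 6856 under median centring, and 1956 to 4755 without an array. Under median centring all probes had a median of 0.20 in place of -0.025, so directions hold relative to the centring. It also drew every probe with 4 values to a shared SE of 0.17, and then called 4 member probes (Tagln -2.98, Myh11 A_44_P489468 -2.68, Tpm2 A_44_P1042783 -2.30 and Tpm1 A_44_P320617 -1.87) among 22 in all for a slide difference.

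Cald1 A_44_P315562 missed the threshold without array 1 or 2 (adjusted p = 0.0674 and 0.0725), on slide 2 alone (0.119) and with the wider error (0.0975), and Des with the wider error (0.155), with saturated spots left out (0.0514) and with both channels above background (0.0627). Tagln passed with processed signals as given (0.0415), marked spots kept (0.0483), an intensity trend in the prior (0.0426), the authors' table (0.0459), median centring (9.55e-14) and each slide alone (0.0163 and 0.0461). Over the normalizations and the authors' table, list medians changed sign for the cytoskeleton partners (-0.20 to 0.12), signalling (-0.047 to 0.34), transcription factors (-0.11 to 0.27) and striated muscle (-0.37 to 0.18), each highest under median centring, and the fibroblast median ran from -1.4 to -0.72. Means turned in sign on slide 1 alone for both Myh11 probes (0.040 and 0.10), Tpm1 A_44_P320620 (0.029) and Tpm2 A_44_P1042783 (0.32). They turned on slide 2 alone for Tpm1 A_44_P134213 (-0.46) and A_44_P475051 (-0.059). Leaving out 1 array gave -0.87 to 0.040 for Myh11 A_44_P274021 (0.040 without array 3), -0.11 to 0.29 for Tpm1 A_44_P134213 (below 0 without array 1 or 2, at -0.11 and -0.070) and -0.013 to 0.052 for A_44_P475051 (below 0 without array 1 or 2, at -0.013 and -0.0039). Under median centring Cnn1 was at 0.017, Tpm1 A_44_P320620 at 0.27 and Tpm2 A_43_P10874 at 0.14, and with marked spots kept A_44_P320620 was at 0.21. Slide differences turned with marked spots kept, a choice made after seeing the data, for Actg2 (0.38) and A_44_P320620 (0.095), and with processed signals and loess for A_44_P475051 (0.065). The cause was not tested. Signal over background limits Cald1, Tpm1 A_44_P475051 and A_44_P131796, and the array 4 values of Tagln and Myh11.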
